A study of Mus musculus with 40 samples.

Results

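The 9 genes described here serve MHC class II antigen presentation, and their messages were followed in mouse liver across a TCDD dose series. They were chosen by function, with earlier results of these data known. Named by symbol and matched by Ensembl identifier, 9 of 9 were found among the 55359 identifiers in the count tables. H2-Aa, H2-Ab1 and H2-Eb1 encode class II chains, H2-DMa and H2-DMb1 the peptide-loading molecule H2-DM, Cd74 the invariant chain, Ciita the class II transactivator, and Cd80 and Cd86 the B7 co-stimulators. The H2 genes lie on chromosome 17, Ciita, Cd80 and Cd86 on chromosome 16 and Cd74 on chromosome 18. All 9 passed the filter on low counts, beside 15373 genes in total.

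Liver RNA was sequenced from 40 male C57BL/6 mice, 1 library per mouse. There were 8 groups of 5 mice: sesame oil vehicle alone, or the same oil with the dioxin TCDD (tetrachlorodibenzo-p-dioxin) at 30, 10, 3, 1, 0.3, 0.1 or 0.03 μg/kg. TCDD is a persistent ligand of the aryl hydrocarbon receptor (AhR). Oral doses were given at 4-day intervals over 28 days. The labels put the start at 30 days of age and the end at 58 days, while the methods of the study place the first dose slightly earlier. The labels name no transgene or deletion, and all groups received the oil. The tissue was whole liver, so each value is a mixture over the cell types of the organ.

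Class II molecules carry peptides from ingested material to CD4 T cells. Their α and β chains assemble with the invariant chain, which blocks the groove until cathepsin S trims it, and H2-DM then exchanges the remaining fragment for antigen. In liver the constitutive producers include dendritic cells, B cells and macrophages, Kupffer cells among them, and hepatocytes hold little. CIITA binds no DNA itself and works through a complex of RFX, CREB and NF-Y on the X and Y boxes upstream of class II genes, and interferon-γ is its classical inducer. C57BL/6 mice have the H-2b haplotype, which lacks a functional E-alpha chain, so H2-Eb1 transcripts do not lead to a surface I-E molecule in this strain. CD80 and CD86 deliver the second signal to T cells through CD28.

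Upstream sequence is shown for 3 genes whose messages rose together. They were picked because the CCAAT box read by NF-Y can be seen in each, and the GCAAC core of the X box in H2-Aa and H2-Eb1. Each line holds the 150 bases that end just before the annotated start site, written 5′ to 3′ on the strand of the gene from RefSeq on GRCm38.p6. Capitals mark CCAAT and GCAAC, on either strand, so that an inverted CCAAT reads as ATTGG.
H2-Aa, minus strand, chr17:34287824-34287973: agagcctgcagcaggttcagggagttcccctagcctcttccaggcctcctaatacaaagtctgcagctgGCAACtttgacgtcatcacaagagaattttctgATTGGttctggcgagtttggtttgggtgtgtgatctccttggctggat
H2-Eb1, plus strand, chr17:34305717-34305866: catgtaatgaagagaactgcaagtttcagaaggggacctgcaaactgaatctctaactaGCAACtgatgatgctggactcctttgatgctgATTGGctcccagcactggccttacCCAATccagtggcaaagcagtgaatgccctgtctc
H2-DMb1, plus strand, chr17:34153041-34153190: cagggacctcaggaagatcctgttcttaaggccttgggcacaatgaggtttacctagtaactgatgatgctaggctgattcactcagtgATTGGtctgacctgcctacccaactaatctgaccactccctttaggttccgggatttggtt

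In H2-Aa the GCAAC lay 28 bases upstream of the inverted CCAAT, and in H2-Eb1 the spacing was 27 bases. H2-DMb1 held the inverted CCAAT without GCAAC. The table held windows of 300 bases, from 250 before the start site, for 5 of the 9 genes in 6 windows, and H2-Ab1, Cd74, Ciita and Cd86 had none. H2-DMa, not shown, held GCAAC and CCAAT in different windows, and Cd80, not shown, held GCAAC without CCAAT. Over all 32851 windows, 37.4% held CCAAT, 35.2% held GCAAC and 13.7% held both, so neither match is rare. The AhR core GCGTG, present in 32.4% of windows, had no match in the 6 windows. Both strands were searched, and a match or its absence concerns only these letters in these windows.

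Each library held 15.5 to 20.97 M counts in genes. Levels are given as CPM, the normalised read count per M counts after TMM scaling of library sizes. Hepatocyte markers were abundant in every library, as the tissue label requires. On the first principal component, 47.6% of the variance, 30 μg/kg replicate 1 stood at 81.7 against 128.7 to 147.4 for the other 4 mice of that dose. Replicates of a group differed by more than sampling noise in all 80 pairs. Titles fell into a low-numbered and a high-numbered run, called run 1 and run 2 here, and what they stand for is not stated. Vehicle had 3 mice in run 1 and 2 in run 2, the same numbers as 1 μg/kg.

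Class II messages stood at higher levels in whole liver RNA from 1 μg/kg TCDD upward. At that dose 7 of the 9 genes were called: H2-Aa, H2-Ab1, H2-Eb1, H2-DMa, H2-DMb1, Cd74 and Ciita. Calls required a fold of 1.5 or more together with an adjusted p below 0.05 in edgeR's quasi-likelihood test. At 1 μg/kg 2.15% of all genes tested were called higher. The same 7 genes were called at 3 μg/kg, where 4.53% of all genes were. Cd86 joined at 10 μg/kg, making 8 of 9 against 13.6% of all genes, and Cd80 at 30 μg/kg, making 9 of 9 against 23.2%. No member was called lower at any dose, whereas 18.9% of all genes were called lower at 30 μg/kg.

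At 0.03 and 0.1 μg/kg no member was called by edgeR, DESeq2 or limma, and none had an unadjusted p under 0.05, beside 0.0195% and 0.0846% of all genes called higher. At 0.3 μg/kg none of the 9 was called by any of these tools, against 0.403% of all genes, although 5 had an unadjusted p under 0.05. Counts at an unadjusted p are given here without the share of all genes at that threshold, so they have no background. A linear trend over the ordered doses had an upward slope in 9 of 9 members at an adjusted p under 0.05, as in 31.5% of all genes tested. The slope per dose step was largest for H2-Eb1, at 0.47 ± 0.039 on the log2 scale (SE), and smallest for Cd80, at 0.17 ± 0.053.

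**Figure D1:**
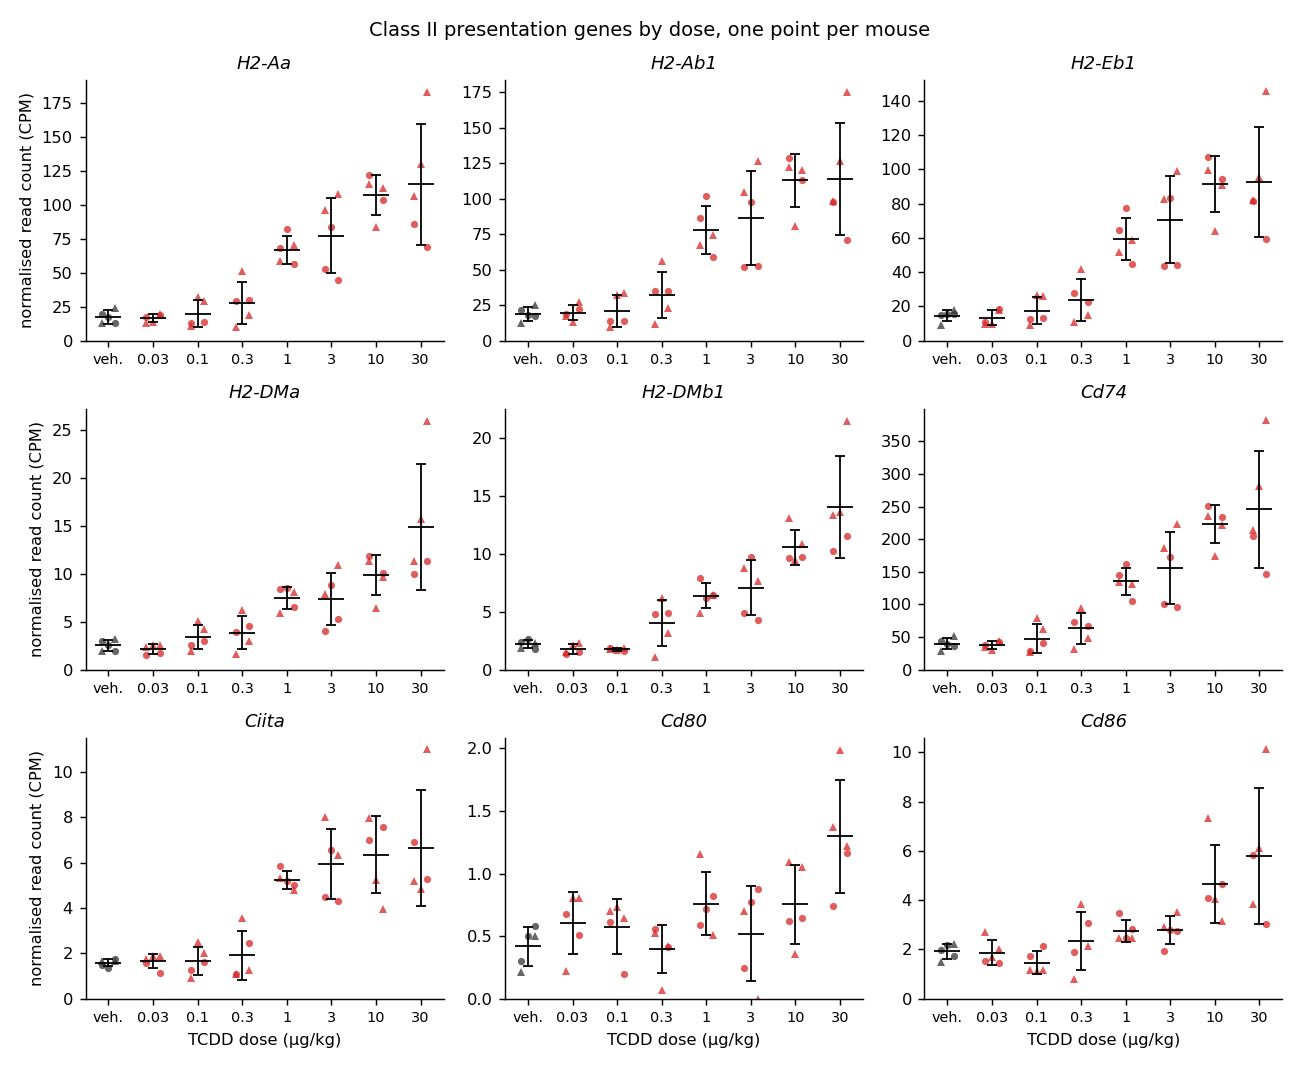
Normalised read counts (CPM, linear axis from 0) of the 9 genes in every mouse, by TCDD dose in μg/kg. Circles are run 1, triangles run 2, horizontal bars the group mean and whiskers the SD (n = 5). From 1 μg/kg every mouse lies above every vehicle mouse for the chains, H2-DM, Cd74 and Ciita.

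The class II chains had the largest slopes of the 9, within an SE of those of H2-DMb1 and Cd74. H2-Ab1, the β chain of I-A, stood at 21.4, 18.2, 17.3, 12.2 and 25.1 CPM in the vehicle mice. At 0.3 μg/kg it stood at 34.8, 35.1, 12.0, 56.0 and 23.2 CPM, and at 1 μg/kg at 86.2, 102, 59.0, 67.7 and 74.7 CPM. The 0.3 μg/kg mice overlapped vehicle, and the 1 μg/kg mice did not overlap either group. The fold change at 1 μg/kg was 4.13 (log2 2.05 ± 0.33 SE, adjusted p = 5.54e-05 by edgeR). At 30 μg/kg the values were 98.0, 71.2, 98.4, 127 and 176 CPM, a 6.04-fold rise.

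H2-Aa, the α chain of I-A, stood at 19.6, 17.0, 13.1, 12.6 and 24.2 CPM in vehicle and at 67.7, 81.9, 56.2, 58.3 and 70.2 CPM at 1 μg/kg. Its lowest treated mouse was above its highest vehicle mouse by more than the whole vehicle range. At 30 μg/kg it stood at 85.4, 69.1, 107, 130 and 183 CPM, for which the rise over vehicle was 6.63-fold (log2 2.73 ± 0.32, adjusted p = 3.90e-09 by edgeR). H2-Eb1, the β chain of I-E, had a mean of 14.6 ± 3.22 CPM in vehicle (SD, n = 5) and 59.3 ± 12.5 CPM at 1 μg/kg, a 4.07-fold rise. Its mean at 30 μg/kg was 92.7 ± 32.2 CPM.

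The mice at 0.1 and 0.3 μg/kg were uneven. At 0.1 μg/kg replicates 4 and 5 held 32.0 and 29.1 CPM of H2-Aa, above every vehicle mouse, and the other 3 held 10.5 to 14.0 CPM, within or below the vehicle range. Cd74 split in the same way at that dose, with 79.3 and 61.6 CPM against 27.2 to 40.4 CPM. H2-DMb1 did not, and its 5 mice lay between 1.57 and 1.88 CPM. At 0.3 μg/kg replicate 3 was the lowest mouse for H2-Aa, at 9.65 CPM, and replicate 4 the highest, at 50.9 CPM.

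H2-DMa and H2-DMb1, which together form the editor of class II peptides, were expressed at lower levels and rose with the chains. H2-DMb1 stood at 2.39, 2.61, 1.75, 1.89 and 2.29 CPM in vehicle and at 7.94, 6.16, 6.42, 4.90 and 6.43 CPM at 1 μg/kg. All 5 treated mice were above all 5 vehicle mice, and the rise was 2.90-fold (adjusted p = 0.000296 by edgeR). The 30 μg/kg mice held 10.3, 11.5, 13.4, 13.6 and 21.5 CPM, a 6.40-fold rise. H2-DMa rose 2.95-fold at 1 μg/kg and 5.87-fold at 30 μg/kg, and its vehicle level was 2.52 ± 0.574 CPM (SD, n = 5).

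H2-DMa overlaps exons of Brd2 on the opposite strand, and the libraries keep no strand, so reads over both genes are not assigned. The first strand column assigns such reads by their orientation, whichever gene they came from. With it the log2 change of H2-DMa was 0.76 at 1 μg/kg and 1.30 at 30 μg/kg, against 1.56 and 2.55 with the unstranded counts. It was called with either column. H2-DMb1 has a close paralog in H2-DMb2, and reads that match both are not counted, so its level is uncertain.

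Cd74 was the most abundant of the 9 genes, also per length, with 23.7 CPM per kilobase of exon in vehicle against 7.49 for H2-Eb1, 7.34 for H2-Ab1 and 4.56 for H2-Aa. Its vehicle mice stood at 44.3, 39.4, 35.9, 27.9 and 51.2 CPM. At 1 μg/kg they stood at 146, 162, 105, 135 and 131 CPM, and at 30 μg/kg at 205, 147, 214, 281 and 382 CPM. The groups did not overlap, and the rises were 3.41-fold and 6.18-fold (adjusted p = 3.64e-05 and 4.13e-10 by edgeR).

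Ciita, the regulator of the other class II genes, had the largest fold change of the 9 between 0.3 and 1 μg/kg. Vehicle mice held 1.49, 1.37, 1.75, 1.68 and 1.65 CPM. The mice at 0.3 μg/kg held 1.11, 2.47, 1.10, 3.58 and 1.27 CPM, and those at 1 μg/kg held 5.87, 5.20, 5.04, 5.34 and 4.79 CPM. At 0.3 μg/kg 3 mice lay below every vehicle mouse, whereas at 1 μg/kg the group was tight and entirely above both. The rise over vehicle was 3.30-fold at 1 μg/kg (log2 1.72 ± 0.29, adjusted p = 0.000103 by edgeR) and 4.18-fold at 30 μg/kg. Ciita shares exonic bases with Dexi on the opposite strand, and reads over both are not assigned.

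The co-stimulators were called at higher doses than the other members. Cd86 stood at 1.99, 2.18, 1.75, 1.47 and 2.22 CPM in vehicle and at 3.50, 2.45, 2.83, 2.48 and 2.48 CPM at 1 μg/kg, which left every treated mouse above vehicle but the change of 1.43-fold uncalled (adjusted p = 0.462 by edgeR). At 10 μg/kg it stood at 4.08, 4.66, 7.35, 4.06 and 3.17 CPM, a 2.42-fold rise (adjusted p = 0.00103), and at 30 μg/kg at 5.83, 3.04, 3.85, 6.11 and 10.1 CPM, a 3.00-fold rise.

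Cd80 was close to the limit of these libraries, with 3 to 9 counts per vehicle library and 0 to 21 counts at doses up to 10 μg/kg. The 3 μg/kg library with 0 counts allows a level of up to 0.192 CPM, taking 3 counts as the floor and counting error alone. At 30 μg/kg it held 16 to 50 counts, or 0.741, 1.16, 1.37, 1.98 and 1.22 CPM, against 0.299, 0.498, 0.583, 0.210 and 0.501 CPM in vehicle. The groups did not overlap, with a 3.09-fold rise (adjusted p = 0.00471 by edgeR). Within run 1 alone the log2 change was 1.05 (adjusted p = 0.174) and within run 2 alone 2.05 (adjusted p = 0.0815), so neither run called it alone.

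**Figure D2:**
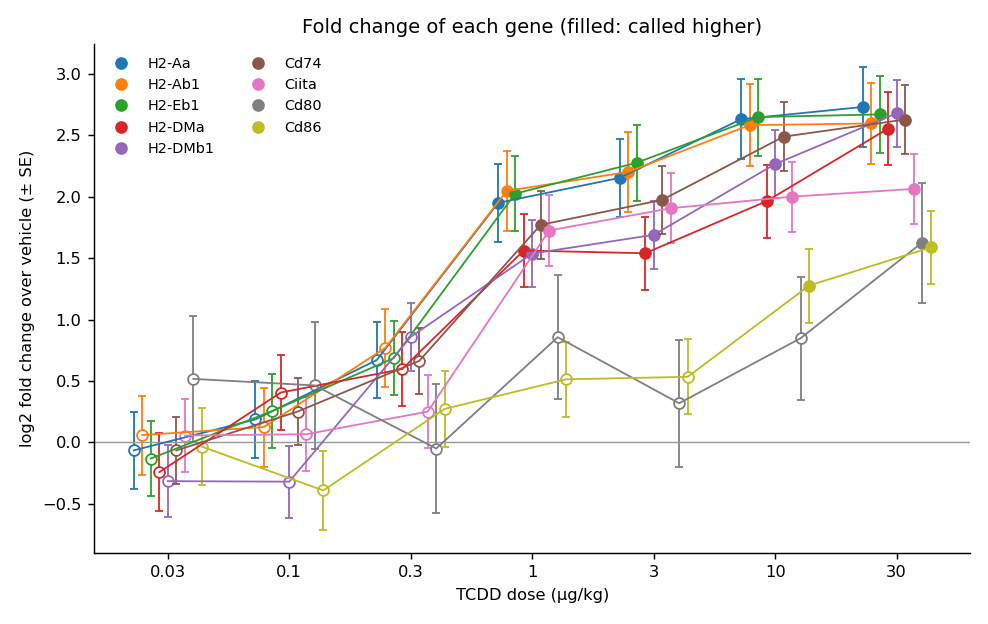
Log2 fold change over vehicle by TCDD dose (μg/kg), 1 line per gene, with the SE from edgeR as whiskers; filled circles are called higher and open circles are not. The chains, H2-DM, Cd74 and Ciita are filled from 1 μg/kg, Cd86 from 10 μg/kg and Cd80 at 30 μg/kg.

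Neighbouring doses were then compared. Between 0.3 and 1 μg/kg 2 of the 9 were called higher, Ciita at 2.78-fold (adjusted p = 0.0063 by edgeR) and H2-Eb1 at 2.53-fold (adjusted p = 0.0312), beside 0.228% of all genes. H2-Aa, Cd74 and H2-Ab1 changed by 2.43-, 2.15- and 2.42-fold over this step, with adjusted p-values of 0.0629, 0.0654 and 0.0696, which did not pass. The unadjusted p was under 0.05 for 7 of the 9, again without a share of all genes beside it.

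No member was called by edgeR between 3 and 1, 10 and 3, or 30 and 10 μg/kg, where 0.0585%, 4.43% and 10.6% of all genes were called higher, and 0, 2 and 1 members had an unadjusted p under 0.05. None was called between 0.1 and 0.03 or between 0.3 and 0.1 μg/kg either, beside 0.039% and 0.0455% of all genes and with 1 and 2 unadjusted p-values under 0.05. Between 10 and 30 μg/kg the log2 change of H2-Ab1 was 0.014 ± 0.31 (SE) and that of Ciita 0.063 ± 0.26. For H2-DMa the change was 0.59 ± 0.27 (adjusted p = 0.095). The means at neighbouring doses above 1 μg/kg were therefore not separated for any member, within SEs of this size.

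The 1 μg/kg rises were compared between runs. In run 1, with 3 mice a group, the log2 changes of the 7 called genes were between 1.60 and 2.11 and all 7 were called. In run 2, with 2 mice a group, they were between 1.43 and 2.03 and none was called, with adjusted p-values of 0.139 to 0.383. At 30 μg/kg 8 of 9 were called in each run alone, the exception being Cd80. The share of all genes called within each run is not given here, so counts called within a run have no background. Leaving out any 1 library, 30 μg/kg replicate 1 included, left 7, 7, 8 and 9 members called at 1, 3, 10 and 30 μg/kg.

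Scaling shifted all genes at the highest dose. Libraries scaled by their totals alone gave 6402 genes higher and 1559 lower at 30 μg/kg, against 3567 and 2909 after TMM, and shifted the median of all genes to a log2 change of 0.52. All 9 members were called under either scaling.

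Whether the class II genes moved as a block was examined by the ratio of each pair at 30 μg/kg against vehicle, in exact permutation tests on 36 pairs. The smallest p that 5 mice against 5 can give is 0.00794. The 6 genes H2-Aa, H2-Ab1, H2-Eb1, H2-DMa, H2-DMb1 and Cd74 kept their ratios within 0.24 of vehicle on the log2 scale, and no pair among them passed. Cd74 and H2-Ab1 differed by 0.016 in this sense, with Cd74 the higher.

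Each of these 6 genes rose more than Cd86, by 1.01 to 1.25 on the log2 scale, and more than Cd80, by 1.03 to 1.27 (adjusted p = 0.022 for each of the 12 pairs, exact permutation test, 5 of 5 mice beyond every vehicle mouse). H2-Eb1 also rose more than Ciita, by 0.70 (adjusted p = 0.022, exact permutation test), and the other 5 exceeded Ciita by 0.52 to 0.76 without passing. In all, 13 pairs passed. With a prior count of 0.5 in place of 2 the number was 8, since 5 pairs with Cd80 no longer passed.

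**Figure D3:**
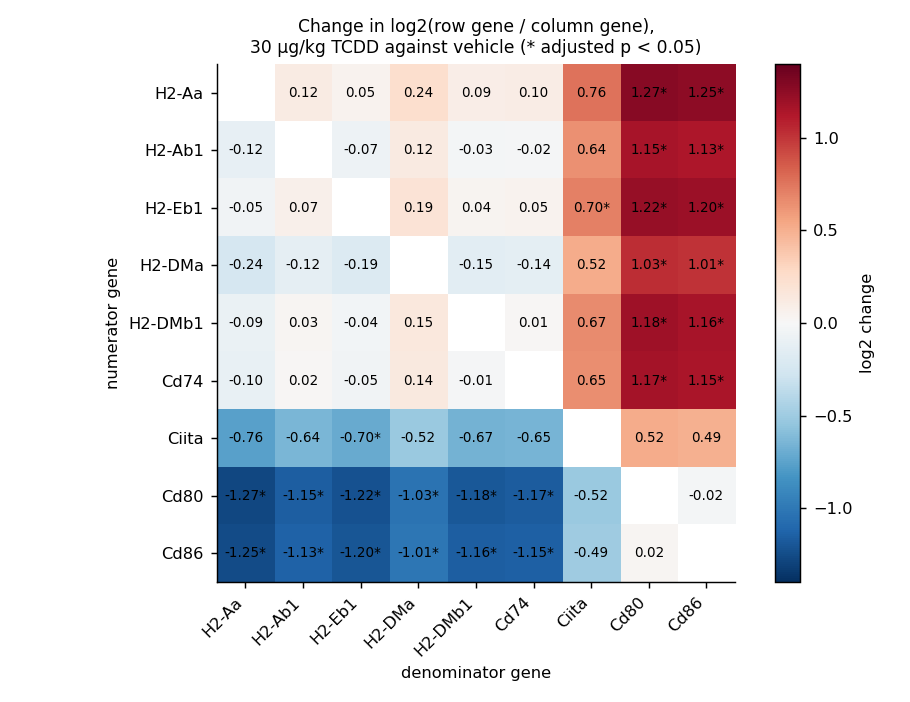
Change in the log2 ratio of the row gene to the column gene at 30 μg/kg TCDD against vehicle (5 mice each), with a star where the exact permutation test passed after adjustment over 36 pairs. The block of chains, H2-DM and Cd74 is pale, and its rows against Cd80 and Cd86 range from 1.01 to 1.27.

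In bulk liver, more cells of a type and more RNA per cell cannot be told apart. The members were therefore set against 6 macrophage markers (Adgre1, Cd68, Csf1r, Fcgr1, Lyz2 and Mertk), whose mean log2 CPM was subtracted from that of each gene in the same mouse. The macrophage mean rose by 0.67 at 1, 0.72 at 3, 1.36 at 10 and 2.40 at 30 μg/kg on the log2 scale. At 1 μg/kg 2 of the 6 markers were called higher, Adgre1 and Csf1r, and at 30 μg/kg all 6, beside 2.15% and 23.2% of all genes.

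At 1 μg/kg the ratio to the macrophage markers was higher than in vehicle for the same 7 genes that were called there. The differences ran from 0.83 for H2-DMb1 to 1.39 for H2-Ab1 on the log2 scale, with 5 of 5 mice above every vehicle mouse (adjusted p = 0.0263 for each, exact permutation test over 63 comparisons). At 3 μg/kg 6 genes passed and at 10 μg/kg 5, all higher. At 0.3 μg/kg and below none passed and no unadjusted p was under 0.05.

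The ratios no longer stood out at 30 μg/kg. Those of the chains, H2-DM and Cd74 differed from vehicle by 0.038 to 0.28 with none passing and no unadjusted p under 0.05 in that direction. The ratio of Cd80, which held 3 to 9 counts per vehicle library, was lower by 1.00 (adjusted p = 0.0263, exact permutation test). No prior count other than 2 was tried for the ratios to markers. The difference was -0.97 for Cd86 (p = 0.0317, adjusted p = 0.087, exact permutation test), with 4 of 5 mice below every vehicle mouse, and -0.48 for Ciita (adjusted p = 0.338, exact permutation test), and neither passed. The H2-Aa ratio was 2.16, 1.69, 1.71, 1.55 and 2.27 in the mice at 10 μg/kg and 1.37, 0.227, 0.677, 0.858 and 1.20 at 30 μg/kg. The groups at 10 and 30 μg/kg did not overlap.

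The step from 10 to 30 μg/kg was tested after these values were seen. Over this step the macrophage mean itself went from 1.36 to 2.40 above vehicle on the log2 scale. The edgeR log2 changes of the members ran from 0.014 for H2-Ab1 to 0.78 for Cd80, with none called. The group medians were lower at 30 than at 10 μg/kg for H2-Aa, H2-Ab1, H2-Eb1, Cd74 and Ciita. They were higher for H2-DMa, H2-DMb1, Cd80 and Cd86. For H2-Ab1 the medians were 120 and 98.4 CPM at 10 and 30 μg/kg. Its log2 change over vehicle went from 2.65 to 2.14 in run 1 alone and from 2.52 to 2.81 in run 2 alone. Since the macrophage mean rose, any gene with an unchanged level would show a lower ratio to these markers. The ratio fell in 6 genes, by 1.01 for H2-Aa, 1.07 for H2-Ab1, 1.06 for H2-Eb1, 0.667 for H2-DMb1, 0.964 for Cd74 and 0.999 for Ciita on the log2 scale (adjusted p = 0.0286 to 0.0357, exact permutation tests over 9 genes). The difference was -0.52 for H2-DMa (adjusted p = 0.0816), -0.80 for Cd86 (0.0982) and -0.31 for Cd80 (0.341), by the same exact test. Without 30 μg/kg replicate 1, whose macrophage markers summed to 284 CPM against 607 or more in the other 4 mice, 7 genes passed. That mouse had the highest ratio of its dose in each of these 7 genes, so the count without it adds no independent support.

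The choice of reference cell changed the result at 30 μg/kg. Against 9 dendritic cell markers, whose mean rose by 1.60, 5 genes still exceeded vehicle at 30 μg/kg (H2-Aa, H2-Ab1, H2-Eb1, H2-DMb1 and Cd74, by 0.97 to 1.08 on the log2 scale), and none fell between 10 and 30 μg/kg. The dendritic cell markers were low, with a mean log2 CPM of -0.71 in vehicle against 3.49 for the macrophage markers. The prior count of 2 shrinks their rise more than that of abundant genes. Against 5 Kupffer cell markers none differed at 30 μg/kg. At 1 μg/kg 6 genes passed with the Kupffer cell list and 5 with the dendritic cell list.

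**Figure D4:**
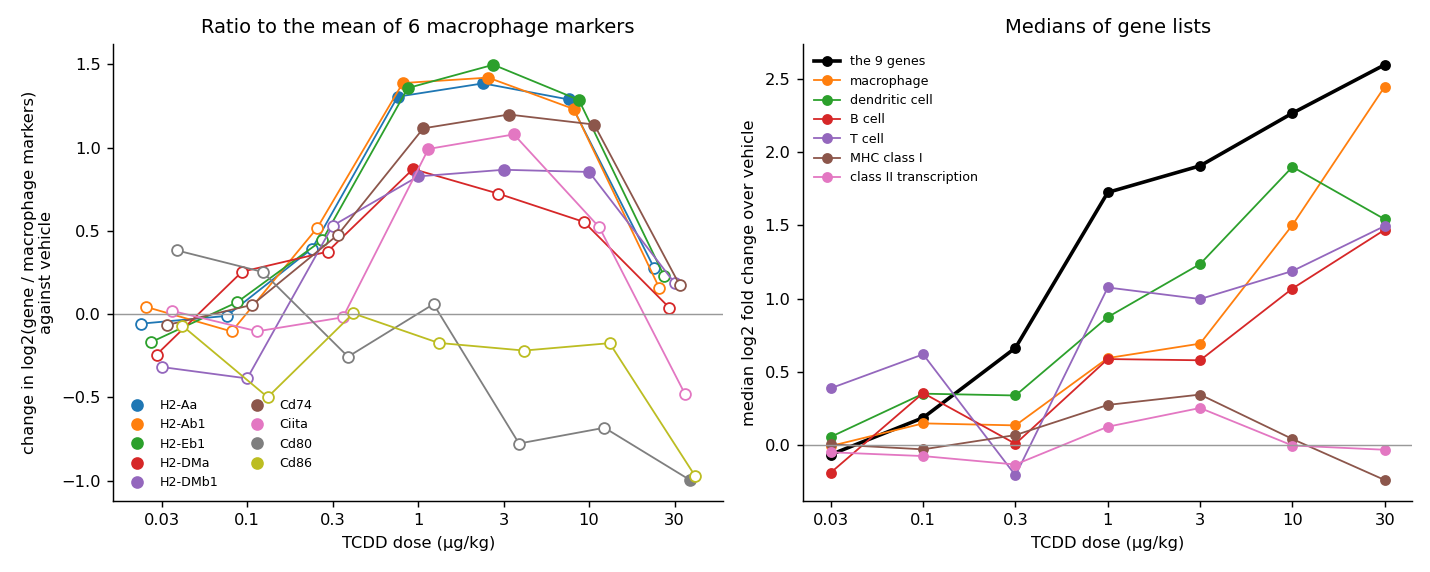
Left, change against vehicle in the log2 ratio of each gene to the mean of 6 macrophage markers, by TCDD dose (μg/kg); filled circles passed the exact permutation test after adjustment. Right, median log2 fold change over vehicle of 7 gene lists; the 9 genes lead at 1 μg/kg, at 1.72, and the macrophage list, at 0.59 there, reaches 2.45 at 30 μg/kg.

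Other genes of the class II pathway were read from lists. Of 9 further loading and editing genes tested, 2 were called higher at 1 μg/kg and 6 at 30 μg/kg, beside 2.15% and 23.2% of all genes. Their median log2 change was 0.054 and 1.37, beside 0.00 and 0.029 for all genes. Ctss, the cathepsin that trims the invariant chain, rose 2.06-fold at 1 μg/kg and 11.6-fold at 30 μg/kg. Marchf1, a ubiquitin ligase that removes class II and CD86 from the cell surface, rose 2.56-fold and 8.78-fold. Lgmn, an endosomal protease, rose 4.91-fold and Ifi30, a thiol reductase of the endosome, 2.59-fold at 30 μg/kg, and neither was called at 1 μg/kg.

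The paralog H2-DMb2 rose 3.29-fold at 30 μg/kg and H2-Ob, part of the inhibitor of H2-DM, 2.05-fold. None of these 9 was called lower at 30 μg/kg. Ctsl, another cathepsin, and Marchf8, a relative of Marchf1, had log2 changes of -0.56 and -0.51 with edgeR adjusted p-values of 0.000148 and 4.85e-06, and missed the call only on the fold of 1.5. Sppl2a, a protease that clears invariant chain fragments, was called lower at 10 μg/kg, at 1.61-fold (adjusted p = 0.000341 by edgeR), and had a log2 change of -0.16 at 30 μg/kg. H2-Oa and H2-Eb2 had at most 2 counts in vehicle libraries and did not enter the fit.

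Among 12 regulators of class II transcription, 3 were called higher and 4 lower at 30 μg/kg, with a median log2 change of -0.032, beside 23.2% of all genes higher and 18.9% lower. Spi1, the PU.1 factor of myeloid cells, rose 6.34-fold and Irf8, a factor of dendritic cells and macrophages, 5.03-fold. Both were also called at 1 μg/kg, at 1.71- and 1.97-fold. Nfya, a subunit of NF-Y, rose 1.73-fold, whereas its partner Nfyb fell by 1.15 on the log2 scale. The RFX subunits Rfx5, Rfxap and Rfxank fell by 0.63, 0.83 and 0.76 on the log2 scale.

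Irf1, an interferon-induced factor, had log2 changes of 0.66 at 1 μg/kg (adjusted p = 0.122 by edgeR) and -0.17 at 30 μg/kg. Ifng, the gene of interferon-γ, had 0 to 4 counts per library in every group and was not tested. The receptor chains Ifngr1 and Ifngr2 rose 1.95- and 1.66-fold at 30 μg/kg, while no other gene of the 5 tested was called there, beside 23.2% of all genes called higher. At 1 μg/kg edgeR called none of the 5, and the unadjusted p was under 0.05 for Ifngr2, with a log2 change of 0.25, and Jak1, with -0.20.

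Class I presentation was read from the same fit. Of 13 class I genes, Tap1, Psmb9 and Psmb10 were called higher at 1 μg/kg, at 2.06-, 1.90- and 1.56-fold, and at 3 μg/kg. Of all genes 2.15% and 4.53% were called higher at these doses. TAP1 pumps peptides into the endoplasmic reticulum, and PSMB9 and PSMB10 are immunoproteasome subunits. By 30 μg/kg these 3 had log2 changes of -0.18, -0.22 and 0.29. Of all genes 23.2% were called higher there and 18.9% lower. No class I gene was called higher, 2 had an unadjusted p under 0.05 upward, and 4 were called lower. These were B2m, the light chain, H2-K1, a heavy chain, and the chaperones Calr and Pdia3, which fell by 0.99, 0.83, 1.03 and 0.67 on the log2 scale.

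Of 5 further co-stimulatory or co-inhibitory genes tested, Cd274, the ligand PD-L1, was called from 1 μg/kg, at 2.87-fold there and 5.62-fold at 30 μg/kg. Cd40 and Icosl were called from 10 μg/kg and reached 3.45- and 2.65-fold. Cd276 and Cd28, the receptor of both B7 molecules on T cells, were not called at any dose. The shares of all genes called higher were 2.15% at 1, 13.6% at 10 and 23.2% at 30 μg/kg.

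Markers of the cells that carry class II were mostly called at 10 and 30 μg/kg. The 9 dendritic cell markers summed to 9.14 to 13.3 CPM in vehicle, 13.5 to 16.2 CPM at 1 μg/kg and 23.7 to 25.1 CPM at 30 μg/kg. Of these 9, 1 was called at 1 μg/kg (Xcr1, a marker of cross-presenting dendritic cells, at 4.08-fold), 7 at 10 μg/kg and 6 at 30 μg/kg. The shares of all genes called higher at these doses were 2.15%, 13.6% and 23.2%. Xcr1 had a log2 change of 1.18 at 30 μg/kg (adjusted p = 0.071 by edgeR), and Zbtb46, a factor of conventional dendritic cells, was not called at any dose. Itgax, which macrophages can carry as well, reached 13.9-fold at 30 μg/kg.

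The 7 B cell markers summed to 4.73 to 7.07 CPM in vehicle, 5.69 to 11.6 CPM at 1 μg/kg and 13.4 to 20.8 CPM at 30 μg/kg. None was called by edgeR at 1 or 3 μg/kg, with 1 unadjusted p under 0.05 at each, 4 were at 10 μg/kg and all 7 at 30 μg/kg. The 6 macrophage markers summed to 83.9 to 109 CPM in vehicle, 143 to 157 CPM at 1 μg/kg and 284 to 754 CPM at 30 μg/kg. Over the same doses the 4 hepatocyte markers went from 93549 to 113733 CPM in vehicle to 27928 to 57697 CPM at 30 μg/kg. Of the 6 T cell markers 4 were called higher at 30 μg/kg, as were 5 of 5 Kupffer cell, 4 of 4 monocyte and 2 of 2 neutrophil markers tested. Of these lists only the Kupffer cell list had a call at 1 μg/kg, Cd5l. Over all genes tested, 2.15% were called higher at 1, 4.53% at 3, 13.6% at 10 and 23.2% at 30 μg/kg. The part of these cell types in the rise of class II genes was not tested beyond the ratios above.

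Pairs of members were also correlated across the 40 livers on log2 CPM, as a description, since the points share the dose groups. Among the 3 chains and Cd74 r was 0.99 in each pair, and after subtraction of each group mean it was still 0.94 to 0.97. Ciita and the chains had r = 0.93 over all livers and 0.62 to 0.65 within groups. Cd80 and the other 8 had r of 0.21 to 0.33, and within groups all values were negative.

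Among 9302 named genes with at least 100 mean counts, those most like the mean profile of the 9 over the 40 livers were Ly6a, Hk3, Pld4, Itgal and Csf1r, with r from 0.96 to 0.94. Once the group means were subtracted, so that only differences between mice of the same dose remained, the closest were Gbp2, Irgm2, Igtp, H2-D1 and Tap1, with r from 0.84 to 0.76. Gbp2, Irgm2 and Igtp encode interferon-inducible GTPases.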

How the data were processed

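The authors deposited raw counts per gene from STAR for each liver, and per the labels the tools named were FastQC 0.11.7, Trimmomatic 0.39 and STAR 2.7.3a. GRCm39 and mm10 are both named without a role, so no coordinates of the counts are given. The unstranded column was used, since the first strand setting held 50.03% to 50.33% of counts. Rows of unmapped, multimapping, ambiguous and gene-free reads were left out, and reads in genes made up 71.27% to 80.77%. The authors also deposited log2 values for 23120 genes, which a blind variance-stabilizing transformation in DESeq2 1.42.0 matched within 5.03e-10; being logged already, they entered limma 3.58.1 as they were.

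Counts were fitted in R 4.3.3 with edgeR 4.0.16 (filterByExpr, minimum count 10, TMM, 1 mean per dose, 40 libraries, quasi-likelihood test), and p-values were adjusted by Benjamini-Hochberg over all genes of each comparison. The study used a posterior probability with the same fold of 1.5, and the adjusted p took its place. Log2 CPM had a prior count of 2. Each library is 1 mouse, and SD is between mice. Ratios were tested by 2-sided exact permutation. The scripts were tested on simulated data. The members and lists were chosen with earlier results of these data known; the text names the 9 members, any gene of the lists, and the 5 genes with at least 100 mean counts most like the mean of the members by each of 2 correlations, over all libraries and within groups. Symbols were matched through GENCODE gene tables (121 of 122 list genes). Alternatives were DESeq2, limma, other scalings and filters, the first strand column, run, single libraries left out, other marker lists and another prior count.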

Additional observations from a re-analysis of the deposited data

Results flagged for a closer look

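Each gene's 5 mice were examined in every group for a single mouse far from the rest, in 72 sets, of which chance alone flags about 1 in 20. One set was flagged. Cd80 in the 0.1 μg/kg mice had a low value in replicate 2, at 0.196 CPM, where the nearest of the other 4 stood at 0.609 CPM. That library held 3 counts of Cd80, so the value lies at the floor of detection.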

How the results depend on the processing

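The counts of members called stayed within 1.5 times under other scalings, filters and tools, a run covariate, the first strand column and fits of vehicle with 1 dose. Run 2 alone called 6 at 3 μg/kg, without H2-DMa (adjusted p = 0.0695 by edgeR), and 7 at 10 μg/kg, without Cd86 (adjusted p = 0.0778 by edgeR), and each run alone called 8 at 30 μg/kg. Larger changes came with run 2 alone at 1 μg/kg, with 0 members called, and at 0.3 μg/kg, where leaving out 1 library gave 0 to 1: without replicate 3 of that dose H2-DMb1 was called, at 1.11. The cause was not tested. Counts of genes whose ratio to macrophage markers differed at 30 μg/kg went from 1 to 0 with the Kupffer cell list and to 5 with the dendritic cell list, which also gave 1 at 0.1 μg/kg and 0 in place of 6 for the step from 10 to 30 μg/kg; the pairs passing went from 13 to 8 with a prior count of 0.5. Signs of uncalled log2 changes turned for H2-DMa at 0.3 μg/kg (-0.064, first strand column), Cd80 at 0.3 μg/kg (0.72 with that column, 0.096 in run 1 alone), and Cd80 at 3 μg/kg (-0.022, limma). With 1 library left out, Cd80 at 0.3 μg/kg ran from -0.21 to 0.20 and Ciita from -0.094 to 0.40.

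No paired analysis was possible because the labels number no replicates, and accession order does not pair mice. A filter at a mean of 50 counts removed Cd80, leaving 8 called at 30 μg/kg. Limma on the deposited values shrank low genes, giving 0.67 for Cd80 and 1.37 for Ciita at 30 μg/kg. The counts of Cd80 limit what its changes below 30 μg/kg can show.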
